A study of Mus musculus with 4 samples.

Results

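Macrophages take up dying cells, free hemoglobin and inhaled or swallowed particles, and the heme and iron set free in this way must be broken down, stored or exported. Hmox1, heme oxygenase, opens the heme ring and yields biliverdin and iron, Blvrb reduces biliverdin-type pigments and flavins, Fth1 and Ftl1 are the heavy and light chains of the iron store ferritin, and Slc40a1 is the iron exporter ferroportin. Nfe2l2 encodes the transcription factor Nrf2, which is held inactive by Keap1, is freed under oxidative stress or when the autophagy receptor Sqstm1 (p62) takes Keap1 away, and switches on antioxidant genes such as Prdx1, Txnrd1 and Gclm. These 10 genes were taken by their Ensembl identifiers from the 12596 genes of the table and were described per mouse and in classes of cells defined by other genes.

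Male C57/Bl6N mice without any engineered allele received by gavage 12 µg of diesel exhaust particles (DEP), a combustion soot, in 200 µL of PBS (mice 14 and 15) or PBS alone (mice 2 and 3), on 5 days per week for about 6 months. Cells of the colonic lamina propria of each mouse that stained for CD11b, and for Ly6C or CD64, were sorted in a single batch and given 1 well of a droplet device per mouse, so that mouse and well cannot be told apart. The assay counts the 3′ ends of RNA molecules by unique molecular identifiers (UMIs), and the question was whether oral DEP alters the transcriptome of gut macrophages.

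The table held 943 cells, with 189 and 334 from the DEP mice 14 and 15 and 200 and 220 from the PBS mice 2 and 3. A cell was left out where 3 or more of the markers listed for another cell type were detected, which removed 164 cells and retained 779, with 631388 to 958855 UMIs per mouse. Of the 164, 147 were removed by B or plasma cell markers although 129 of these also carried C1q RNA at the level of C1q-high cells, and without Igkc, Ighm and Jchain, whose RNA is also found free in droplets, 30 cells were left out. This took away 20.1% and 23.4% of the cells of mice 14 and 15 but 10.5% and 12.3% of those of mice 2 and 3. Calls of the 10 genes that change when all cells are kept are given with both values. No mouse repeated another within sampling noise (chi-square per degree of freedom 3.48 to 6.39 over the pairs), 1 barcode was shared between mice, and no doublet caller was run.

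Plac8-high cells had 2 or more UMIs of Plac8, a gene of monocytes, and C1q-high cells had 0.5% or more of their UMIs on C1qa, C1qb and C1qc, complement genes of resident macrophages. There were 132 Plac8-high and 582 C1q-high cells, and 49 cells that met both rules and 16 that met neither were set aside. Plac8-high cells carried Ccr2 at 793 CPM (UMIs of a gene scaled to a fixed total per library) and Ly6c2 at 745 CPM, whereas C1q-high cells had 201 and 5.17 CPM. Adgre1 (F4/80) and Mrc1 (CD206), macrophage genes that took no part in the rule, were at 559 and 292 CPM in C1q-high cells and at 171 and 19.3 CPM in Plac8-high cells. Not every listed marker parted the classes. The monocyte marker Itgam ran the other way, at 98.8 CPM in Plac8-high and 117 CPM in C1q-high cells. The macrophage marker Fcgr1 differed little, at 176 and 221 CPM. Just outside the rules lay 47 cells with 1 Plac8 UMI and 11 cells with 0.25% to 0.5% of C1q, and just inside lay 17 cells with 2 Plac8 UMIs and 48 cells with 0.5% to 1% of C1q.

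Ferritin and ferroportin are tied to iron by a hairpin in the 5′ untranslated region of their messages, the iron-responsive element, which blocks translation when iron is scarce. The loop of this hairpin (CAGTGN in DNA letters, with a C placed 5 bases before it) was searched on the coding strand of GENCODE transcripts, and 3 of the 10 genes held it. Each stretch is shown with the 6 loop bases in capitals. Fth1, Ftl1 and Slc40a1 share the letters CAGTG, and the last loop base, which the motif leaves free, differs.
Fth1, GRCm38 chr19:9982732-9982761, plus strand: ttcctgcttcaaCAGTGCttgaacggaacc
Ftl1, GRCm38 chr7:45459778-45459807, minus strand: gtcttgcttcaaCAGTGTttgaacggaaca
Slc40a1, GRCm38 chr1:45925464-45925493, minus strand: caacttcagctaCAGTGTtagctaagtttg
The spaced motif CNNNNNCAGTGN was present in a 5′ untranslated region of 12.8% of 20045 genes, so that the letters alone do not mark an element. UMIs count transcripts and say nothing of translation, which is the step this hairpin controls.

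Nrf2 binds the antioxidant response element, whose core letters TGACNNNGC were searched on both strands of RefSeq promoters (300 bases around the start site, GRCm38.p6). Promoters were listed for 8 of the 10 genes, and 4 of their 12 promoters held the core, in Nfe2l2 itself, Gclm, Prdx1 and Txnrd1, against 12.4% of all 32851 promoters. The stretches of the promoters that held a match are shown on the strand that reads the core, in capitals.
Nfe2l2, chr2:75704885-75704913, minus strand: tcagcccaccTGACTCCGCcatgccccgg
Gclm, chr3:122245413-122245441, minus strand: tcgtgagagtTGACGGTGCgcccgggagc
Prdx1, chr4:116685456-116685484, minus strand: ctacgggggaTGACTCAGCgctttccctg
Txnrd1, chr10:82859104-82859132, minus strand: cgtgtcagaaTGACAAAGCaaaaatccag
A match describes the letters and not a bound site. The promoters of Blvrb, Ftl1, Sqstm1 and Fth1 in the list held no match in this window, and Hmox1 and Slc40a1 were not in the list.

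The first comparison asked how the genes differ between C1q-high and Plac8-high cells of the same mice. Ferritin heavy chain, Blvrb, Nfe2l2 and Sqstm1 were higher in C1q-high cells in all 4 mice, Ftl1 barely differed before normalization, and Txnrd1 was lower. UMIs were summed per mouse and class and fitted by edgeR's quasi-likelihood test with the mouse as a block and Benjamini-Hochberg adjustment over 5364 genes, and 8 of the 10 genes passed the filter on low counts, Slc40a1 and Gclm being too rare. Of these 8 genes, 5 were called higher in C1q-high cells, where 11.3% of all genes tested were, and 1 was called lower, where 8.31% were. TMM scaling placed the median of all genes at 0.10 on the log2 scale, and scaling to library totals alone placed it at −0.18 with 440 genes higher and 843 lower in place of 606 and 446. Folds below are therefore to be read against that shift.

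Fth1 (ENSMUSG00000024661, chr19:9980598-9985098) stood at 8639.8 and 9708 CPM in the Plac8-high cells of the DEP mice 14 and 15 and at 8125 and 6820.1 CPM in those of the PBS mice 2 and 3. In the C1q-high cells of the same mice it stood at 14138, 14218, 15527 and 13952 CPM, so that the classes did not overlap. The log2 fold change was 1.10 (SE 0.12, adjusted p = 5.77e-10, edgeR quasi-likelihood test), and 0.80 when library totals were used without normalization factors. Ferritin heavy chain carries the ferroxidase site that oxidizes iron for storage.

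Ftl1 (ENSMUSG00000050708, chr7:45457944-45459884), the chain that helps iron to settle in the core, stood at 7845, 8118, 8245 and 8534 CPM in the Plac8-high cells of mice 14, 15, 2 and 3 and at 8404, 8529, 8341 and 9378 CPM in their C1q-high cells. It was higher in each mouse by a small margin, and the classes overlapped. The log2 fold change of 0.38 (SE 0.11, adjusted p = 0.012 by edgeR's quasi-likelihood test) rested on the scaling, since it was 0.08 with library totals (adjusted p = 0.636) and missed the threshold in DESeq2 (0.42, adjusted p = 0.0795) and without mouse 3 (0.37, adjusted p = 0.0678).

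The ratio of the chains needs no scaling between libraries. Fth1 UMIs over Ftl1 UMIs were 1.10, 1.196, 0.99 and 0.80 in Plac8-high cells of mice 14, 15, 2 and 3 and 1.68, 1.67, 1.86 and 1.49 in C1q-high cells. The ratio was higher in C1q-high cells of 4 of 4 mice, with means of 1.67 ± 0.15 and 1.02 ± 0.17 (SD, n = 4 mice), and an exact two-sided permutation test by sign changes gave p = 0.125, the smallest value that 4 pairs allow. Cells meeting both rules lay between at 1.60, 1.45, 1.44 and 1.38. Ferritin as a whole took 1.54% to 1.78% of all UMIs in Plac8-high and 2.25% to 2.39% in C1q-high cells. Ferritin genes have near-identical copies, and 1 of 5 annotated copies, Ftl1-ps1, was in the table with 1522 UMIs, so that the level of Ftl1 and the absolute ratio are uncertain by the reads that such copies share.

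**Figure D1:**
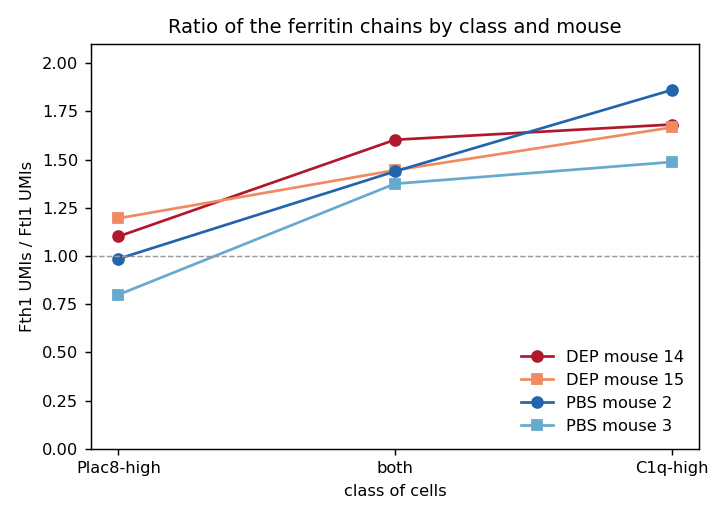
Fth1 UMIs divided by Ftl1 UMIs (vertical axis, no unit) in Plac8-high cells, cells meeting both rules and C1q-high cells (horizontal axis), 1 line per mouse. All 4 lines rise, from 0.80 to 1.196 in Plac8-high cells to 1.49 to 1.86 in C1q-high cells.

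Blvrb (ENSMUSG00000040466, chr7:27447978-27466144) was the gene of the group with the largest log2 difference among the 8 tested. It stood at 116, 104, 60.0 and 78.9 CPM in Plac8-high cells of mice 14, 15, 2 and 3 and at 288, 194, 274 and 303 CPM in C1q-high cells. The lowest C1q-high value lay above the highest Plac8-high value, with a log2 fold change of 1.69 (SE 0.24, adjusted p = 4.19e-07, edgeR quasi-likelihood test). After thinning each cell to 1000 UMIs, 21.6% of C1q-high cells (95% exact binomial interval 18.4% to 25.2%) and 12.1% of Plac8-high cells (7.09% to 18.9%) had a Blvrb UMI, against 55.8% and 25% before thinning at median depths of 3753.5 and 3190.0 UMIs. In 15 cells of the same droplets with 2 or more of the B cell genes Cd79a, Cd79b and Ms4a1, at a median of 5737 UMIs per cell, Blvrb was seen in 33.3% of cells before and 6.67% after thinning (0.169% to 31.9%), and the shares in both classes after thinning lay inside that interval. The interval rests on 1 positive cell and is wide. Before thinning, the level was 82.8 CPM in these 15 cells, against 96.4 CPM in Plac8-high and 266 CPM in C1q-high cells of the 4 mice together.

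Nfe2l2 (ENSMUSG00000015839, chr2:75675513-75704641) stood at 155, 358, 340 and 203 CPM in the Plac8-high cells of mice 14, 15, 2 and 3 and at 359, 396, 493 and 423 CPM in C1q-high cells. It was higher in C1q-high cells in each mouse, and the lowest of these values barely cleared the highest Plac8-high value, with a log2 fold change of 0.94 (SE 0.19, adjusted p = 0.000186, edgeR quasi-likelihood test).

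Sqstm1 (ENSMUSG00000015837, chr11:50199366-50210827) stood at 136, 156, 280.2 and 113 CPM in Plac8-high and at 237, 255, 282 and 234 CPM in C1q-high cells, mice in the same order. It was higher in C1q-high cells in each mouse, in mouse 2 by less than the counting error, and the classes overlapped across mice. The log2 fold change was 0.94 (SE 0.21, adjusted p = 0.000836, edgeR quasi-likelihood test), and it fell to 0.63 (adjusted p = 0.169) in cells thinned to 1000 UMIs.

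Txnrd1 (ENSMUSG00000020250, chr10:82833951-82897712), the cytosolic thioredoxin reductase and a selenoprotein, ran the other way. It stood at 58.2, 92.5, 40.0 and 45.1 CPM in Plac8-high cells of mice 14, 15, 2 and 3 (28 UMIs in all) and at 21.0, 26.1, 26.8 and 25.7 CPM in C1q-high cells (63 UMIs). The classes did not overlap and the log2 fold change was −1.07 (SE 0.39, adjusted p = 0.045, edgeR quasi-likelihood test). The call was lost in 8 of the alternatives, among them all deposited cells (−0.97, adjusted p = 0.0597), without mouse 14 (−1.005, adjusted p = 0.140) and without mouse 15 (−0.70, adjusted p = 0.491).

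Prdx1, a peroxiredoxin that removes hydrogen peroxide, and Hmox1 gave no call. Prdx1 (ENSMUSG00000028691, chr4:116685544-116700822) ranged from 698 to 891 CPM in Plac8-high and from 704 to 839 CPM in C1q-high cells, a log2 fold change of 0.22 (SE 0.14, adjusted p = 0.327, edgeR quasi-likelihood test) that turned to −0.08 with library totals. Hmox1 (ENSMUSG00000005413, chr8:75093621-75100589) stood at 213, 399, 260.2 and 113 CPM in Plac8-high cells of mice 14, 15, 2 and 3 and at 136, 312, 128 and 127 CPM in C1q-high cells. It was lower in C1q-high cells of 3 of the 4 mice before normalization, with a log2 fold change of −0.17 (SE 0.21, adjusted p = 0.657, edgeR quasi-likelihood test) that turned to 0.02 with all deposited cells.

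**Figure D2:**
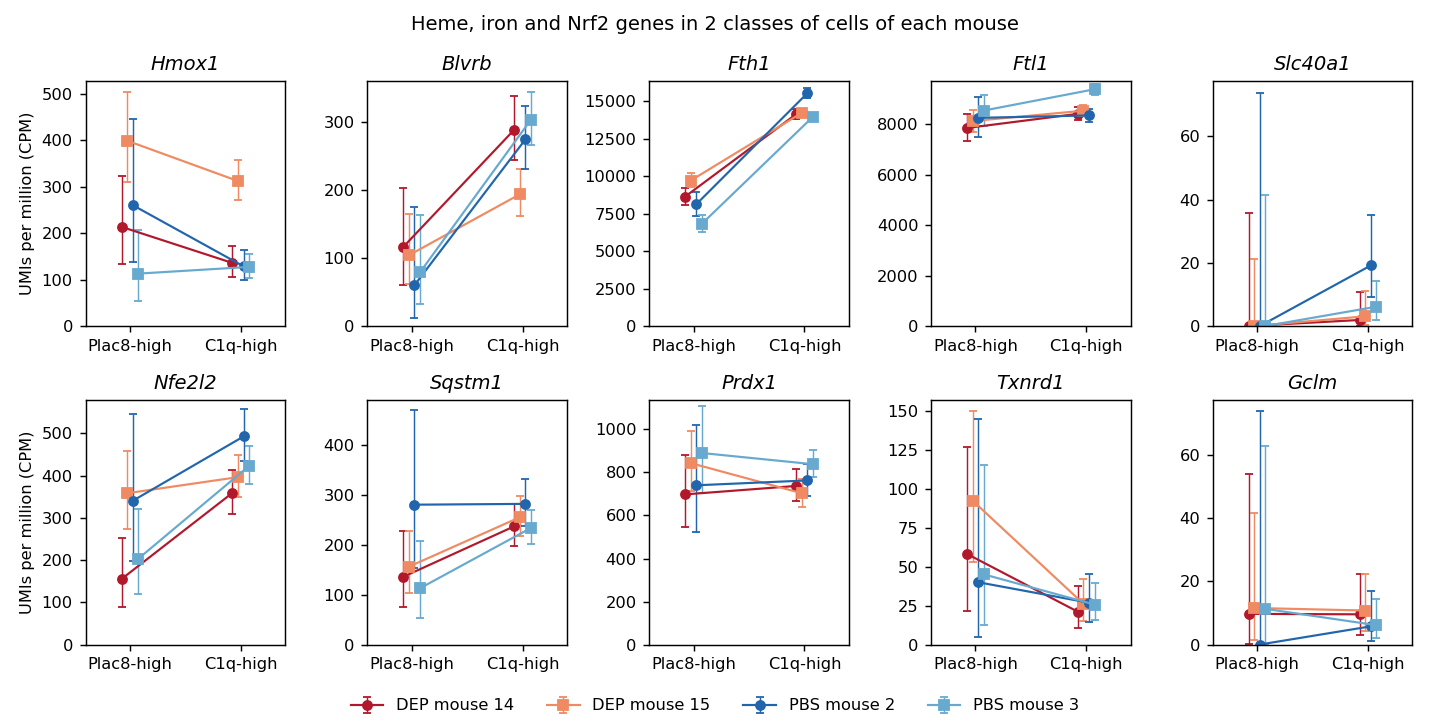
Level of each of the 10 genes (vertical axes, CPM of the class) in Plac8-high and C1q-high cells of each mouse, with 95% exact Poisson intervals that cover counting error alone. Lines join the classes of 1 mouse. They rise in all 4 mice for Fth1, Blvrb, Nfe2l2 and Sqstm1, by small margins for Ftl1, and from 0 CPM for Slc40a1. They fall in all 4 for Txnrd1, and lie highest in mouse 15 for Hmox1.

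Ferroportin and Gclm were described by counts. Slc40a1 (ENSMUSG00000025993, chr1:45908068-45926523) had 23 UMIs in 17 of the 779 cells, of which 14 were C1q-high and 3 met both rules. In 132 Plac8-high cells it had no UMI, which, at 3 counts of the total, allows a share of cells with a UMI of up to 2.27% and a level of up to 7.23 CPM over the 4 mice, and the C1q-high level over all mice was 7.16 CPM, so that a difference was not detectable at this depth. Gclm (ENSMUSG00000028124, chr3:122245557-122270732), the regulatory subunit of the enzyme that starts glutathione synthesis, had 31 UMIs in all, 4 in Plac8-high and 20 in C1q-high cells, at 9.64 and 7.96 CPM.

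The change with C1q was uneven within the C1q-high range. From the 137 cells under 0.25% of C1q to the 231 cells with 1.5% to 2.0%, Blvrb went from 105 to 259 CPM, Fth1 from 8715 to 15040 CPM, and Txnrd1 from 66.8 to 21.2 CPM. Blvrb had reached 222 CPM in the 48 cells with 0.5% to 1.0%, against 259 to 276 CPM in the bins above, whereas Fth1 came down again to 11864 CPM in the 45 cells above 2.5%. These are sums over cells of all mice and carry no test.

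The same comparison was read for lists of genes of the pathways, which include genes of the group. Of 32 Nrf2 target genes on the list, 23 were tested, 6 were higher in C1q-high cells and 8 were lower, with a median log2 fold change of −0.26. For these and the other lists, the values over all genes tested were 11.3% higher, 8.31% lower and a median of 0.10. Beside Blvrb, Fth1, Ftl1 and Sqstm1, those higher were Cbr1, a carbonyl reductase (2.22, SE 0.71, adjusted p = 0.020), and Osgin1 (2.20, SE 0.72, adjusted p = 0.023). Each rested on 3 UMIs in Plac8-high cells, against 73 and 80 in C1q-high cells, so that the level in C1q-high cells was 4.02 times that in Plac8-high cells for Cbr1 (95% exact counting interval 1.32 to 19.9) and 4.40 times for Osgin1 (1.45 to 21.8). Those lower, beside Txnrd1, were genes of glutathione and of the pentose phosphate pathway, which supplies NADPH. All adjusted p values here are from edgeR's quasi-likelihood test with Benjamini-Hochberg adjustment.

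Mgst1, a membrane-bound glutathione S-transferase, had the largest difference on these lists among genes lower in C1q-high cells. It stood at 339, 428, 660.4 and 631 CPM in Plac8-high cells of mice 14, 15, 2 and 3 and at 30.6, 29.2, 30.7 and 23.2 CPM in C1q-high cells, a log2 fold change of −3.85 (SE 0.23, adjusted p = 1.92e-18, edgeR quasi-likelihood test). Gsr, glutathione reductase, followed at 77.6 to 179 CPM against 4.61 to 13.4 CPM (−3.38, SE 0.40), and the cystine transporter gene Slc7a11, the enzyme gene Gstm1 and the pentose phosphate genes Taldo1, Tkt and Pgd gave −1.88, −1.16, −0.91, −0.88 and −0.72. Of these, Tkt was not lower in all mice.

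Of 27 genes of peroxiredoxins, thioredoxins, glutathione and superoxide, 20 were tested, 2 were higher and 8 lower in C1q-high cells, with a median of −0.42 (11.3%, 8.31% and 0.10 over all genes). Msrb1, a selenoprotein that repairs oxidized methionine, stood at 824 to 1021 CPM in Plac8-high and at 93.7 to 144 CPM in C1q-high cells (−2.70, SE 0.17, adjusted p = 2.53e-17, edgeR quasi-likelihood test). Prdx6, a peroxiredoxin that also acts on phospholipids, stood at 283 to 564 against 50.7 to 81.9 CPM (−2.20, SE 0.21, adjusted p = 8.98e-12, same test). Sod1 (1.34) and Txnip (0.68), an inhibitor of thioredoxin, were the 2 that were higher. Txnip was not higher in all mice (adjusted p = 0.048, same test).

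The remaining lists are to be read against the same 11.3% higher and 8.31% lower over all genes. Among the 24 heme genes 12 were tested, with Blvrb and the hemoglobin scavenger receptor Cd163 (76 UMIs against 1, a ratio of levels of 12.5 with a counting interval of 2.18 to 501.8) higher and Alas1, which starts heme synthesis, lower (−1.005, SE 0.32), at a median of −0.11. Cd163 was not higher in all mice. Among the 28 iron genes 14 were tested, with Fth1, Ftl1 and the iron regulator Hfe (1.41, SE 0.31) higher and Fbxl5, an iron sensor, lower (−1.29, SE 0.34), at a median of 0.32. Nfe2l2 and Sqstm1 were the called genes of the 10 Nrf2 regulators tested, and Keap1 gave 0.26 (SE 0.55) and Bach1, a repressor of Hmox1, −0.11 (SE 0.34) without a call. Of 8 autophagy receptor genes tested Sqstm1 was called. Of 15 dissociation stress genes 6 were higher and 1 was lower in C1q-high cells, and their part in these differences was not tested.

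**Figure D3:**
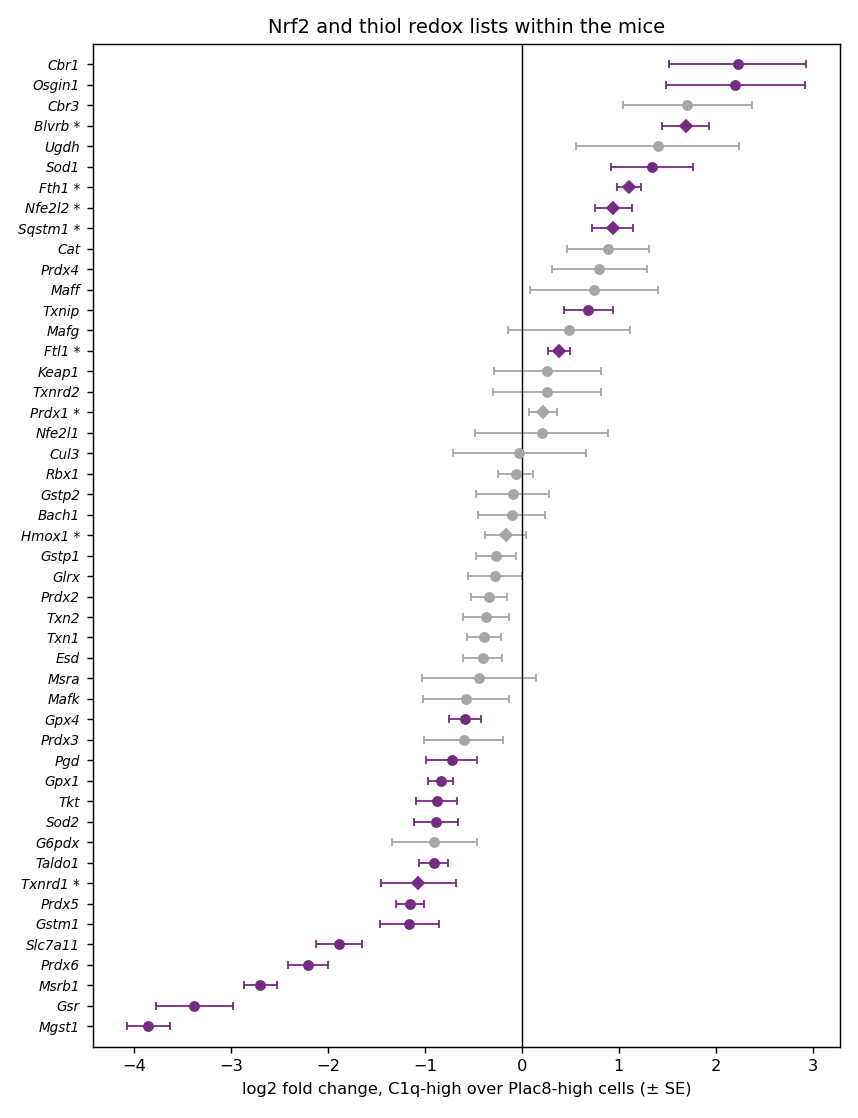
Log2 fold change of C1q-high over Plac8-high cells (horizontal axis, ± SE, edgeR fit with mouse as block) for the tested genes of the Nrf2 and thiol redox lists, sorted by size. Purple marks an adjusted p under 0.05, grey the others, and diamonds with an asterisk the genes of the group, which run from Txnrd1 at −1.07 to Blvrb at 1.69 while Mgst1 lies lowest at −3.85.

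The second comparison asked whether oral DEP changed these genes. None of the 8 tested genes passed the threshold in all retained cells, in Plac8-high cells or in C1q-high cells, where edgeR's quasi-likelihood test called 0.0372%, 0.408% and 0% of all genes. For C1q-high cells this was 0 of 5407 genes, of which 273 had an unadjusted p under 0.05, and DESeq2 called 0, edgeR's likelihood ratio test 3 and the quasi-likelihood test without the filter on low counts 13. The groups did not overlap for 5 of the 8 genes in all cells, 4 in Plac8-high and 3 in C1q-high cells. Among all genes tested, the share without overlap was 36.9%, 36.6% and 34.4% in these sets. A permutation of single values over these mice has 6 arrangements, and its exact two-sided p cannot be under 0.333.

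Hmox1 had the largest fold among the 8 genes in all cells. It stood at 135 and 316 CPM in DEP mice 14 and 15 and at 133 and 128 CPM in PBS mice 2 and 3. Mouse 15 was high and mouse 14 lay within the counting error of both PBS mice (109 to 165 CPM, exact Poisson interval). The log2 fold change was 0.77 (SE 0.30, adjusted p = 0.657 by edgeR's quasi-likelihood test), and without mouse 15 it was 0.0057. Without the filter on low counts the adjusted p was 0.025, at a log2 fold change of 0.80, over 12348 genes. Among the 8 genes, an unadjusted p under 0.05 was given by Hmox1 in each of the 3 sets and by Fth1 in Plac8-high cells. In C1q-high cells Hmox1 gave 0.83 (SE 0.28, adjusted p = 0.928) and 0.07 without mouse 15, and in Plac8-high cells 0.93 (SE 0.40, adjusted p = 0.589) and 0.38 without mouse 15, 0.40 without mouse 3 and 1.501 without mouse 2.

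The Hmox1 UMIs of mouse 15 were counted per cell. At 1000 UMIs per cell, 20.7% of its cells had an Hmox1 UMI (15.9% to 26.2%), against 9.93% in mouse 14, 12.3% in mouse 2 and 13.0% in mouse 3. In the 15 B cell gene-positive cells the thinned share was 0 of 15, which at 3 counts of the total allows a share of up to 20%, and 6.67% unthinned. Cells with 5 or more Hmox1 UMIs numbered 17 of 256 in mouse 15, 12 of them C1q-high, and 3, 3 and 5 in mice 14, 2 and 3. Those 17 cells held 136 of the 283 Hmox1 UMIs of mouse 15. Leaving out the 10 cells with the most Hmox1 in each mouse, a larger share of the 151, 179 and 193 cells of mice 14, 2 and 3 than of the 256 of mouse 15, the level was 216 CPM in mouse 15 and 83.3, 68.5 and 79.4 CPM in mice 14, 2 and 3.

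Over cells, the genes whose level went most with Hmox1 within mice were heat shock genes, namely Hspa1a (Pearson r = 0.31), Hspe1 (0.21), Hsp90aa1 (0.21), Dnajb1 (0.20) and Hspa1b (0.20), among 3368 genes over 779 cells. In single mice r ran from 0.20 to 0.38 for Hspa1a and from −0.05 to 0.37 for Dnajb1. Cells of a mouse share a library and their depth, and the values are a description. Hspa1a itself was highest in mouse 15 at 2721 CPM, against 1630 CPM in mouse 14 and 2029 and 2165 CPM in mice 2 and 3. The dissociation stress genes together took 24923 CPM in mouse 15, 19398 in mouse 14, 23847 in mouse 2 and 23949 in mouse 3, and their part in the Hmox1 level was not tested.

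**Figure D4:**
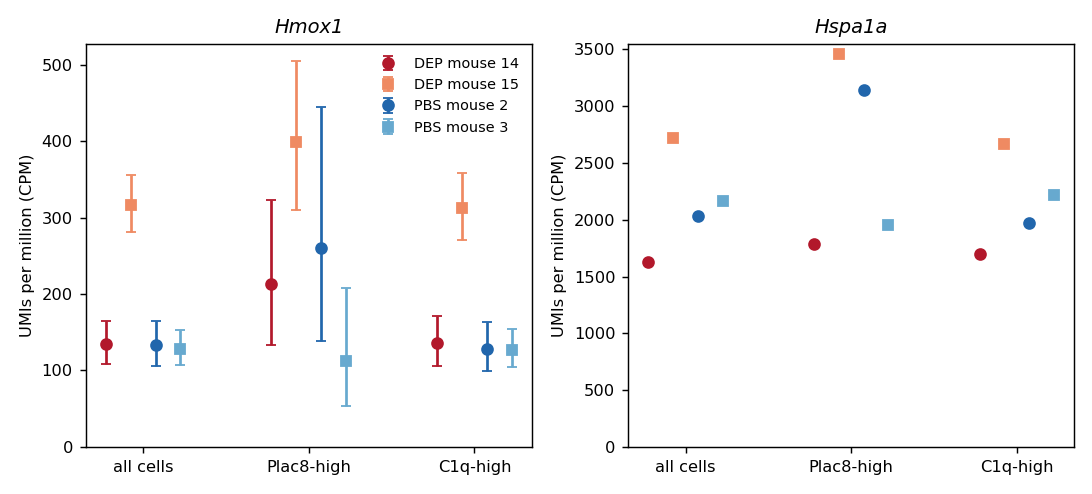
Level of Hmox1 (left, with 95% exact Poisson intervals) and of the heat shock gene Hspa1a (right) in CPM in all retained cells, Plac8-high and C1q-high cells of each mouse. Mouse 15 is highest in each of the 3 sets for both genes, at 316 CPM of Hmox1 over all cells, while over all cells mouse 14 lies close to the PBS mice for Hmox1 and below them for Hspa1a.

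Blvrb went the other way in all cells, at 246 and 177 CPM in DEP mice 14 and 15 and 264 and 269 CPM in PBS mice 2 and 3. Both DEP mice were lower, with a log2 fold change of −0.38 (SE 0.18, adjusted p = 0.757, edgeR quasi-likelihood test). The value was −0.16 without mouse 15, −0.62 without mouse 14 and −0.10 in thinned cells. In Plac8-high cells both DEP mice were above both PBS mice (0.64, SE 0.55), which was 0.34 with all deposited cells, and it turned to −0.12 when cells meeting both rules were kept. Plac8-high cells, whose Blvrb level was lower, were 20.5% and 23.4% of the retained cells of the DEP mice and 8.94% and 13.0% of those of the PBS mice, and the part of this in the value over all cells was not tested, while within C1q-high cells the value was −0.28 (SE 0.20, adjusted p = 0.929) and −0.02 without mouse 15.

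Fth1 stood at 13079, 13281, 14826 and 13153 CPM over all cells of mice 14, 15, 2 and 3 and Ftl1 at 8211, 8406, 8458 and 9225 CPM. Neither gave a call, with log2 fold changes of −0.12 (SE 0.11) and −0.12 (SE 0.10). In Plac8-high cells Fth1 was higher in both DEP mice than in both PBS mice, by 0.36 (SE 0.16, adjusted p = 0.640, edgeR quasi-likelihood test), and the difference was gone when cells meeting both rules were kept (−0.0045). The difference of this fold between C1q-high and Plac8-high cells was −0.48 on the log2 scale for Fth1 (interaction term, SE 0.18, adjusted p = 0.491, edgeR quasi-likelihood test), which was no call.

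None of the 8 genes was called for such a difference between the classes, where 0.391% of all genes tested were. The ratio of Fth1 to Ftl1 was 1.15 ± 0.07 in Plac8-high cells of DEP mice and 0.89 ± 0.13 in those of PBS mice (SD, n = 2 mice each, exact two-sided permutation p = 0.333), and 1.67 ± 0.01 and 1.67 ± 0.26 in C1q-high cells.

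Slc40a1 was detected mainly in the PBS mice among the retained cells. Retained cells of mice 14 and 15 held 1 and 2 UMIs, and those of mice 2 and 3 held 13 and 7, at 1.43, 2.24, 20.6 and 7.30 CPM. Per UMI sequenced this was 0.15 times as many in DEP as in PBS cells, with a 95% exact interval of 0.0285 to 0.505 that covers counting error alone, and an exact two-sided permutation over mice gave p = 0.333, the smallest it can give. All deposited cells held 1, 7, 13 and 11 UMIs, so that 5 of the 7 UMIs of mouse 15 lay in cells left out by the marker rule and the contrast narrowed. The gene did not pass the filter, and without it edgeR's quasi-likelihood test gave an adjusted p of 0.0703.

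Nfe2l2 stood at 329 and 381 CPM in DEP mice 14 and 15 and at 458 and 405 CPM in PBS mice 2 and 3. Both DEP mice were lower, in all cells (−0.31, SE 0.16, adjusted p = 0.764, edgeR quasi-likelihood test) and in C1q-high cells (−0.27, SE 0.17, adjusted p = 0.928). In Plac8-high cells the groups overlapped, and the value of 0.11 (SE 0.38) turned with the mouse left out, between −0.67 and 0.53. Sqstm1 overlapped between groups in all 3 sets, at 218, 235, 274 and 223 CPM over all cells.

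Prdx1 was lower in both DEP mice in all cells (738 and 742 against 763 and 834 CPM, log2 fold change −0.15, SE 0.13) and in C1q-high cells, without a call. Txnrd1 overlapped in all cells at 27.2, 42.5, 28.5 and 27.1 CPM in mice 14, 15, 2 and 3, where again mouse 15 was highest, and without that mouse its log2 fold change went from 0.32 to −0.06. In Plac8-high cells it was higher in both DEP mice by 0.89 (SE 0.68, adjusted p = 0.944, edgeR quasi-likelihood test) on 22 UMIs against 6. Gclm gave 7 and 11 UMIs in the DEP mice and 5 and 8 in the PBS mice, a ratio per UMI sequenced of 1.38 (95% exact interval 0.640 to 3.07).

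**Figure D5:**
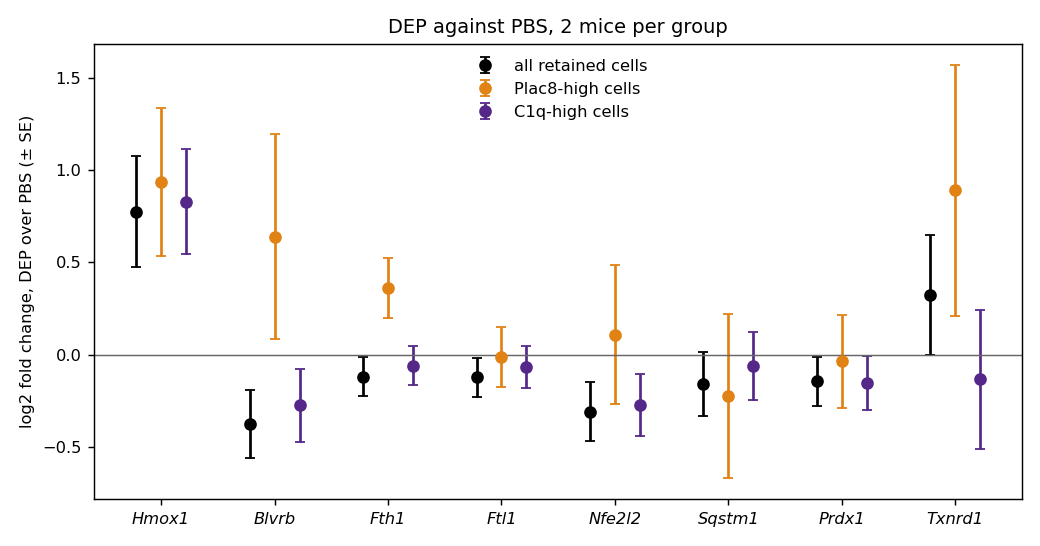
Log2 fold change of DEP over PBS (vertical axis, ± SE from the edgeR fits, n = 2 mice per group) for the 8 tested genes in all retained, Plac8-high and C1q-high cells. Hmox1 lies above 0 in the 3 sets at 0.77, 0.93 and 0.83, with mouse 15 the highest mouse in each, and no point passed the adjusted threshold.

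On the lists of heme, iron, Nrf2 and autophagy genes, which include genes of the group, DEP gave no call in all cells or in C1q-high cells. Their median log2 fold changes over all cells were 0.13 for 14 heme genes, −0.11 for 14 iron genes, −0.23 for 10 Nrf2 regulators and −0.04 for 23 Nrf2 targets, against −0.0081 for all genes. None of these lists gave a call in Plac8-high cells either. On the peroxiredoxin, thioredoxin, glutathione and superoxide list 1 of 21 tested genes was called there, where 0.408% of all genes were. This was Sod2, the mitochondrial superoxide dismutase, at 281 and 624 CPM in DEP mice 14 and 15 and 200.1 and 113 CPM in PBS mice 2 and 3. Both DEP mice were higher, by 1.71 (SE 0.39, adjusted p = 0.011, edgeR quasi-likelihood test). Plac8-high libraries held 49967 to 173062 UMIs. The 19 genes called there fell to 0 in DESeq2 and with cells meeting both rules kept, to 2 with all deposited cells and to 1 in thinned cells. Sod2 was thus not called in DESeq2 or with cells meeting both rules kept. Whether it was among those still called with all deposited cells or in thinned cells was not followed.

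The sum of Fth1 and Ftl1 correlated within mice most with Apoe (Pearson r = 0.41), Cd63 (0.41), Ms4a7 (0.40), Rgs1 (0.40) and Cxcl16 (0.34) over 779 cells and 3368 genes. Cells of all classes entered together, and Apoe stood at 5515 CPM in Plac8-high and 41793 CPM in C1q-high cells. The part of the class difference in these correlations was not tested. For Slc40a1, with 17 positive cells, the highest were Pla2g7 (0.20), Rbfa (0.19), Trps1 (0.17), Rnaset2a (0.16) and Npl (0.15), which in counts this sparse is no finding. The correlation of Hmox1 with Fth1 was 0.04, with Ftl1 0.12 and with Blvrb 0.06.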

How the data were processed

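Per the labels and methods, the authors sorted the cells in a single batch, prepared 10x 3′ libraries with 1 well per mouse and deposited raw UMI counts per gene and cell. The submitters' processing notes name Cell Ranger, STAR 2.6.1a, R 3.6 and mm10, the build given as GRCm38 in the report. The lowest cell held 1016 UMIs. Ensembl identifiers matched a symbol for 12576 of 12596 genes. Counts were summed per mouse and class and fitted in R 4.3.3 with edgeR 4.0.16 (TMM, quasi-likelihood test, Benjamini-Hochberg adjustment, threshold 0.05) for genes above 1 CPM in at least 2 libraries with a UMI in 5% of the cells. Genes that chose the cells were not counted in the class comparisons. DESeq2 1.42.0 was an alternative. The fits were checked on simulated counts whose spread was set and not taken from these mice. Of DEP changes of 1 on the log2 scale, 13% were called in all cells, 0% in Plac8-high and 20% in C1q-high cells. For changes of 2 these were 79%, 31.6% and 77%. Between the classes 15% and 67% were called, and for the difference of the DEP effect 0% and 7%. A missing call therefore does not exclude changes of this size. Exact tests and intervals used Python 3.11.15 with scipy 1.17.1, and cells were thinned with seed 1. For DEP against PBS, p-values of the fits measure the spread between mice that share a batch, with 1 well each. In the fits with the mouse as a block, they measure how the class difference varied from mouse to mouse. All edgeR fits share estimates of spread across genes.

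The members and lists were chosen with earlier results of these data known. The text names the 10 genes, per comparison up to 5 list genes with the largest fold among calls that moved 1 way in all mice, and per profile the 5 genes most correlated among those with a UMI in 10% of cells. Other genes named as members of a count, the 15 B cell gene-positive cells, library totals as a scaling, and the immunoglobulin alternative were chosen after the data were seen. Alternatives were other scalings, tests, filters and class limits, all cells, thinned cells, and each mouse left out.

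Replicate numbers pair the classes and not the groups, since both classes of a mouse came from 1 well. No paired analysis was possible for DEP against PBS because the groups share no replicate number. For the classes, the mouse was a block. Without the replicate block 1058 genes were called in place of 1052.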

Additional observations from a re-analysis of the deposited data

How the results depend on the processing

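Depth and the number of mice limit these results. Slc40a1, Gclm and Txnrd1 rest on 23, 31 and 101 UMIs, the Plac8-high library of mouse 2 on 16 cells, and each group on 2 mice. Where a mouse was left out, the lone mouse of its group was taken to vary like the others. No paired analysis was possible for DEP against PBS because the groups share no replicate number, and leaving out the mouse block between the classes changed no call of the genes (1058 genes called without the replicate block, 1052 with it). Of the refitted folds of the genes, 500 kept their direction and their side of the threshold, 12 lost a call, 1 gained one and 35 changed direction, none of these 35 a called value. Except where fewer genes, cells or mice entered by construction, the cause was not tested.

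Over all cells, 2 genes were called for DEP, against 51 without the filter on low counts, 13 by the likelihood ratio test, 1 by DESeq2, 1 with all deposited cells, 1 with the immunoglobulin genes not used, 0 in thinned cells and 0 to 25 with a mouse left out. In Plac8-high cells the 19 calls became 0 in DESeq2, 2 with all deposited cells, 1 in thinned cells, 9 with Plac8 at 0.05% of UMIs, 0 with cells meeting both rules kept and 0 to 19 with a mouse left out. In C1q-high cells the 0 calls became 13 without the filter, 3 by the likelihood ratio test, 3 with library totals and 0 to 1 with a mouse left out. Between the classes the 1052 calls became 577 in DESeq2, 464 in thinned cells and 757 to 1015 with a mouse left out. For the difference of the DEP effect between the classes the 21 calls became 0 in thinned cells, 12 with library totals and 8 to 22 with a mouse left out. Before thinning, 34.1% of Plac8-high and 34.5% of C1q-high cells had an Hmox1 UMI (15.9% and 14.9% after), and 25% and 55.8% had a Blvrb UMI.

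The log2 folds that changed direction were small or imprecise. For DEP in Plac8-high cells, keeping cells that meet both rules gave Blvrb −0.12 and Fth1 −0.0045, and no filter gave Ftl1 0.14 and Prdx1 0.12. Thinning there gave Ftl1 0.30, Sqstm1 0.12 and Prdx1 0.16, Plac8 at 3 or more UMIs gave Ftl1 0.017, all deposited cells gave Nfe2l2 −0.047, and leaving the immunoglobulin genes out of the marker rule gave Nfe2l2 −0.036 and Prdx1 0.0074. With a mouse left out, Ftl1 ran from −0.074 to 0.070, Nfe2l2 from −0.67 to 0.53, Sqstm1 from −0.81 to 0.41 and Prdx1 from −0.19 to 0.18. In C1q-high cells Fth1 was 0.0059 with all deposited cells and 0.011 without the immunoglobulin genes, and with a mouse left out Fth1 ran from −0.15 to 0.037, Ftl1 from −0.13 to 0.0054, Sqstm1 from −0.21 to 0.090 and Txnrd1 from −0.33 to 0.013. Over all cells Txnrd1 ran from −0.065 to 0.59 with a mouse left out. Between the classes Hmox1 was 0.0015 without the filter and 0.023 with all deposited cells, and Prdx1 was −0.076 with library totals. For the difference of the DEP effect Ftl1 was 0.0092 with library totals and Sqstm1 −0.18 in thinned cells, and with a mouse left out Hmox1 ran from −0.66 to 0.33, Nfe2l2 from −0.77 to 0.30, Sqstm1 from −0.33 to 0.51 and Prdx1 from −0.38 to 0.020.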
